A study of Mus musculus with 4 samples.

Results

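Planar cell polarity (PCP) genes were followed across the cell types of the caudal E8.5 mouse embryo in WT and *Grhl3*-null pools. The genes were the Vang-like *Vangl1* and *Vangl2*, the Flamingo cadherins *Celsr1*, *Celsr2* and *Celsr3*, the Frizzled receptors *Fzd3* and *Fzd6*, the adaptor *Prickle1*, the scaffold *Scrib* and the receptor-like pseudokinase *Ptk7*. The rule that picks them uses gene symbols alone, though the set was proposed with earlier results of these data known, and all 10 were found among the 31055 features of the count matrices. WT embryos carried the normal *Grhl3* gene, and *Grhl3*-null embryos were homozygous for a constitutive null allele, so that every cell lacked it. All were C57BL/6 embryos of *Grhl3*+/- intercrosses at the stage of 6 to 7 somites, without treatment. Caudal tissue of 5 WT embryos formed a WT pool and that of 3 *Grhl3*-null embryos formed a null pool, and each pool was run in 2 droplet reactions, which gave 4 libraries. A difference between genotypes is thus a difference between 2 pools, and its p-values measure only the spread between repeated reactions.

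PCP is the alignment of cells within the plane of an epithelium. In the core pathway, CELSR cadherins bridge neighbouring cells, Frizzled receptors gather on a cell face opposite to VANGL and PRICKLE, and the asymmetry feeds into actomyosin contraction. In the neural plate this machinery drives the convergent extension that narrows and lengthens the tissue before the tube closes. Mice lacking *Vangl2*, *Celsr1*, *Scrib* or *Ptk7* function, or *Fzd3* and *Fzd6* together, fail to close most of the neural tube, and *Grhl3*, a Grainyhead-like transcription factor of the epithelium beside the neural plate, is needed for closure in the caudal region.

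The values are unique molecular identifiers (UMIs), each marking 1 captured transcript. Levels are given as CPM, the UMIs of a gene per 1000000 UMIs of the same class of cells in the same library. The kit reads the 3′ end without division by length, so levels are compared between cells for a gene and not between genes. After filtering, 20198 of 24239 barcodes remained, with 4781 to 5459 cells, 209833527 to 226723903 UMIs and a median of 33391 to 38070 UMIs per cell in a library. Between 5 and 7 filtered barcodes were shared by any pair of libraries. Clustering gave 17 clusters, of which 16 could be named from markers, in 14 classes with 19669 cells. The class names carry "-like" since they rest on marker genes, which had been chosen on these same libraries.

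The targeted gene was checked first. *Grhl3* had 878 and 803 UMIs in the filtered cells of the WT libraries and 12 and 14 in the *Grhl3*-null libraries. In the class marked by genes of surface ectoderm and neural plate border (SE/NPB-like), it stood at 32.0 and 26.2 CPM in WT and at 0.23 and 0.35 CPM in *Grhl3*-null.

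The pools differed in ways that bear on every genotype comparison. Of the cells that could be sexed, WT libraries held 1259 male and 3488 female cells in the first and 1206 and 3263 in the second, against 2278 and 1821, and 2300 and 1700, in *Grhl3*-null. When the same cells were divided more finely, at resolution 0.8, 3 of 24 clusters held cells of nearly a single genotype. They had 1001 WT and 6 *Grhl3*-null cells, 495 and 1, and 402 and 2, and 983, 481 and 400 of their cells were called female. The pre-somitic mesoderm-like class had 506 and 494 WT cells but 3 and 3 *Grhl3*-null cells, so genotypes were not compared in it. Embryo, sex and genotype cannot be told apart in these clusters.

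The genes lie on 6 chromosomes of mm10 (GENCODE M21), all annotated as protein-coding. *Vangl2* (ENSMUSG00000026556) spans 172000960 to 172028444 of chromosome 1, minus strand, and *Vangl1* (ENSMUSG00000027860) 102153583 to 102204693 of chromosome 3, minus strand, with the antisense gene *Gm16160* over it. *Celsr2* (ENSMUSG00000068740) lies at 108390851 to 108415552 of chromosome 3, minus strand, and *Celsr3* (ENSMUSG00000023473) at 108826320 to 108852969 of chromosome 9, plus strand. *Fzd3* (ENSMUSG00000007989) lies at 65192449 to 65262463 of chromosome 14, minus strand. Chromosome 15 carries *Fzd6* (ENSMUSG00000022297) at 39006034 to 39038188 on the plus strand, and *Scrib* (ENSMUSG00000022568) at 76047158 to 76069784, *Celsr1* (ENSMUSG00000016028) at 85898929 to 86033777 and *Prickle1* (ENSMUSG00000036158) at 93499114 to 93595891, all on the minus strand. *Ptk7* (ENSMUSG00000023972) spans 46564471 to 46629504 of chromosome 17, minus strand, and overlaps the lincRNA *Gm26904* on the other strand.

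In WT cells the genes did not share a single pattern. The neuroepithelium-like (NE-like) class had the highest level of *Vangl2*, *Celsr1*, *Celsr2*, *Fzd3* and *Scrib*. The notochord-like class had the highest level of *Vangl1*, *Fzd6*, *Prickle1* and *Ptk7*. Erythroid-like cells had the lowest level of 8 genes, *Celsr3* was at most 1.56 CPM in any class, and *Vangl1* was lowest in the pre-somitic mesoderm-like class. Of 130 pairs of classes next to each other in the order of levels, 29 differed (edgeR's quasi-likelihood test, Benjamini-Hochberg adjusted over all genes, as for every adjusted p here), so most neighbours in an order cannot be ranked.

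**Figure D1:**
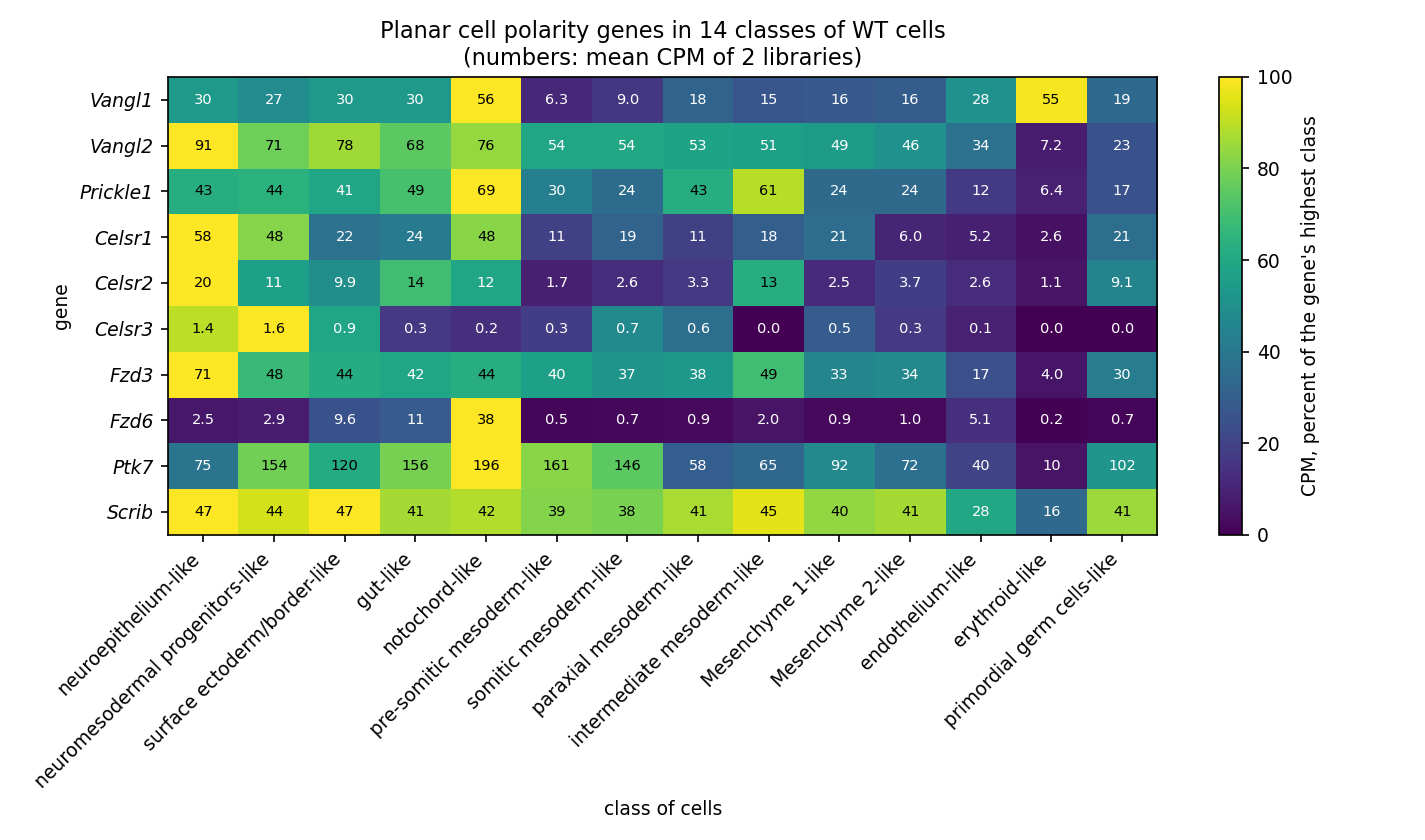
Mean CPM of the 10 PCP genes in the 14 classes of WT cells (numbers, means of 2 libraries). Rows are genes, columns are classes, and the colour gives the level as a percent of the gene's own highest class. The NE-like column is brightest for *Vangl2*, *Celsr1*, *Celsr2*, *Fzd3* and *Scrib*, and the notochord-like column for *Vangl1*, *Prickle1*, *Fzd6* and *Ptk7*.

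Of the Vang-like genes, which encode the membrane proteins that recruit PRICKLE, *Vangl2* was present in every class. It stood at 88.4 and 92.9 CPM in the NE-like libraries, 77.4 and 77.9 CPM in SE/NPB-like, 75.5 and 76.9 CPM in notochord-like and 8.80 and 5.54 CPM in erythroid-like cells. The step from the NE-like to the SE/NPB-like class was beyond the spread (log2 0.26, adjusted p = 4.2e-06), and 5 of 13 neighbouring steps were. *Vangl1* was split more sharply. It stood at 51.6 and 59.7 CPM in notochord-like and 53.4 and 56.4 CPM in erythroid-like cells, against 29.0 and 30.8 CPM in NE-like, 8.66 and 9.43 CPM in somitic and 6.42 and 6.16 CPM in pre-somitic mesoderm-like cells. *Vangl1* was thus high in erythroid-like cells, where *Vangl2*, *Celsr1*, *Celsr2*, *Fzd3*, *Fzd6*, *Prickle1* and *Ptk7* were at their lowest. The order of its leading classes depends on scaling, since the fitted log2 difference of notochord-like less erythroid-like was -0.67 (adjusted p = 5.7e-06) with nearly equal CPM.

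*Prickle1*, which encodes the cytoplasmic partner of VANGL, stood at 62.5 and 74.7 CPM in notochord-like and at 58.5 and 64.3 CPM in intermediate mesoderm-like cells. These classes did not differ beyond their spread (adjusted p = 0.48), while intermediate mesoderm-like was above gut-like cells (log2 0.31, adjusted p = 0.0099). Mesenchyme 2-like cells had 24.5 and 23.0 CPM of *Prickle1*, and erythroid-like cells 5.21 and 7.55 CPM.

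*Celsr1*, the cadherin through which cells contact each other in the pathway, fell into tiers. NE-like cells had 56.6 and 60.1 CPM, notochord-like cells 45.7 and 50.4 CPM and neuromesodermal progenitor-like (NMP-like) cells 48.6 and 47.1 CPM, and the next class, gut-like cells, had 23.0 and 25.4 CPM. The step from NMP-like to gut-like cells was a log2 difference of 1.03 (adjusted p = 3.0e-18). *Celsr2* had 18.2 and 22.1 CPM in NE-like and 13.98 and 13.92 CPM in gut-like cells, the only neighbouring step of its order that differed (log2 0.57, adjusted p = 4.3e-06). It fell to 1.20 and 2.29 CPM in pre-somitic mesoderm-like cells. *Celsr3* rested on 153 and 180 UMIs over all WT cells, of which NMP-like cells held 48 and 71 and NE-like cells 31 and 29, and none of its 13 neighbouring steps passed the test.

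*Fzd6* had the most restricted level of the Frizzled receptors, which bind WNT ligands. It stood at 36.1 and 40.0 CPM in notochord-like cells, 9.80 and 12.1 CPM in gut-like, 8.34 and 10.9 CPM in SE/NPB-like and 2.39 and 2.57 CPM in NE-like cells, and at 7 and 7 UMIs in the pre-somitic mesoderm-like libraries. The notochord-like mean was 25.3 times the median class, and 1.72 on the log2 scale above gut-like cells (adjusted p = 3.5e-14). *Fzd3* was spread evenly by comparison, with 68.4 and 74.3 CPM in NE-like cells, 49.4 and 49.6 CPM in intermediate mesoderm-like cells and 3.91 and 4.03 CPM in erythroid-like cells.

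*Ptk7*, a co-receptor without kinase activity, was highest in the notochord-like class. It stood at 204 and 188 CPM in notochord-like, 167 and 154 CPM in pre-somitic mesoderm-like, 152 and 159 CPM in gut-like, 155 and 154 CPM in NMP-like, 144 and 149 CPM in somitic mesoderm-like and 123 and 118 CPM in SE/NPB-like cells. The NE-like class had 76.1 and 73.8 CPM and the paraxial mesoderm-like class 56.6 and 59.96 CPM. The 2 leading classes of *Ptk7*, notochord-like and pre-somitic mesoderm-like, did not differ beyond their spread (log2 0.14, adjusted p = 0.058). *Scrib*, an apicobasal scaffold that also binds VANGL2, was nearly flat. Its highest mean, 47.5 CPM in NE-like cells, was 1.16 times its median class, and only the step from somitic mesoderm-like cells (37.9 CPM) down to endothelium-like cells (28.4 CPM) differed.

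Pairwise contrasts of WT classes gave the same picture. Of the WT NE-like cells, 40.4% lay in a finer cluster, described below, that was low in *Pax6*, a leading gene of the class. WT NE-like levels and contrasts are thus those of a mixed class. Between SE/NPB-like and NE-like cells 6 of 10 genes differed, where 56.9% of all genes tested did. *Fzd6* and *Ptk7* were higher in SE/NPB-like cells (log2 1.91 ± 0.16 and 0.64 ± 0.05, SE) and *Celsr1*, *Celsr2*, *Fzd3* and *Vangl2* lower (log2 -1.47 ± 0.07, -1.06 ± 0.11, -0.73 ± 0.06 and -0.26 ± 0.05). Between NMP-like and NE-like cells 6 differed, against 33.0% of all genes. *Ptk7* was higher in NMP-like cells (log2 1.04 ± 0.04), while *Celsr2*, *Fzd3*, *Vangl2*, *Celsr1* and *Vangl1* were lower by 0.15 to 0.82.

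All 10 genes differed between notochord-like and NE-like cells, where 45.7% of all genes did. *Fzd6* (log2 3.81 ± 0.17), *Ptk7* (1.26 ± 0.07), *Vangl1* (0.79 ± 0.10) and *Prickle1* (0.58 ± 0.09) were higher and the other 6 lower, *Celsr3* on 1 and 0 notochord-like UMIs. From NMP-like to pre-somitic mesoderm-like cells 9 of 10 genes were lower, against 50.7% of all genes called in either direction. The largest falls were those of *Celsr2* (log2 -2.67 ± 0.17), *Fzd6* (-2.60 ± 0.29), *Celsr1* (-2.09 ± 0.08) and *Vangl1* (-2.08 ± 0.09), and *Ptk7* alone was not called (0.07 ± 0.04). The WT pre-somitic mesoderm-like cells were 981 female and 2 male, against 959 and 518 in WT NMP-like cells, and the part of sex or embryo was not tested. Gut-like and SE/NPB-like cells differed in 6 genes, against 40.6% of all genes, with *Celsr2*, *Ptk7* and *Prickle1* higher in gut-like cells by 0.49, 0.36 and 0.25 and *Scrib*, *Vangl2* and *Celsr3* lower.

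Within WT SE/NPB-like cells, those with a *Grhl3* UMI were set against those with none. The class held 122 and 115 cells with and 130 and 106 without, and the *Grhl3*-positive cells were deeper, with a median of 62360 and 64008 UMIs against 33761 and 31553.5. *Vangl2* stood at 86.5 and 82.9 CPM in cells with a *Grhl3* UMI and 63.6 and 67.8 CPM in those without (log2 0.40 ± 0.09, adjusted p = 0.0020), and *Fzd3* at 49.9 and 46.5 CPM against 35.3 and 39.8 CPM (log2 0.39 ± 0.11, adjusted p = 0.017). These were 2 of the 9 members tested, where 11.2% of all genes were called, and the part of depth in the result was not tested. With the class drawn at resolution 0.8, 0 genes were called in this split by edgeR and 2 had an unadjusted p under 0.05.

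*Grhl3* was highest in the SE/NPB-like class, one of the populations the study set out to weigh, so the genotypes were compared first in the SE/NPB-like class (252 and 221 WT, 262 and 260 *Grhl3*-null cells). No PCP gene passed the test there, 0 of 10 where 13.3% of all 12599 genes did. *Vangl2* stood at 77.4 and 77.9 CPM in WT and 76.1 and 84.6 CPM in *Grhl3*-null (log2 0.01 ± 0.06), with overlapping libraries. *Vangl1* (log2 -0.01 ± 0.08), *Scrib* (-0.03 ± 0.07), *Ptk7* (-0.07 ± 0.05), *Celsr2* (-0.08 ± 0.14), *Fzd6* (-0.10 ± 0.15), *Celsr1* (0.10 ± 0.09) and *Fzd3* (-0.13 ± 0.07) had differences of similar size to their errors. The nearest to the threshold was *Prickle1*, at 43.0 and 38.1 CPM in WT and 50.2 and 47.1 CPM in *Grhl3*-null without overlap (log2 0.23 ± 0.07, adjusted p = 0.055 and unadjusted p = 0.0077, the only 1 of the 10 under 0.05). *Celsr3* rested on 14 and 10 against 9 and 6 UMIs. *Ptk7* was called when male cells alone were fitted (log2 -0.33). DESeq2 called 0 of 10 as well. The 11 dissociation genes summed to 239 to 253 CPM in WT and 176 to 179 CPM in *Grhl3*-null cells of the class, and their part in these values was not tested.

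**Figure D2:**
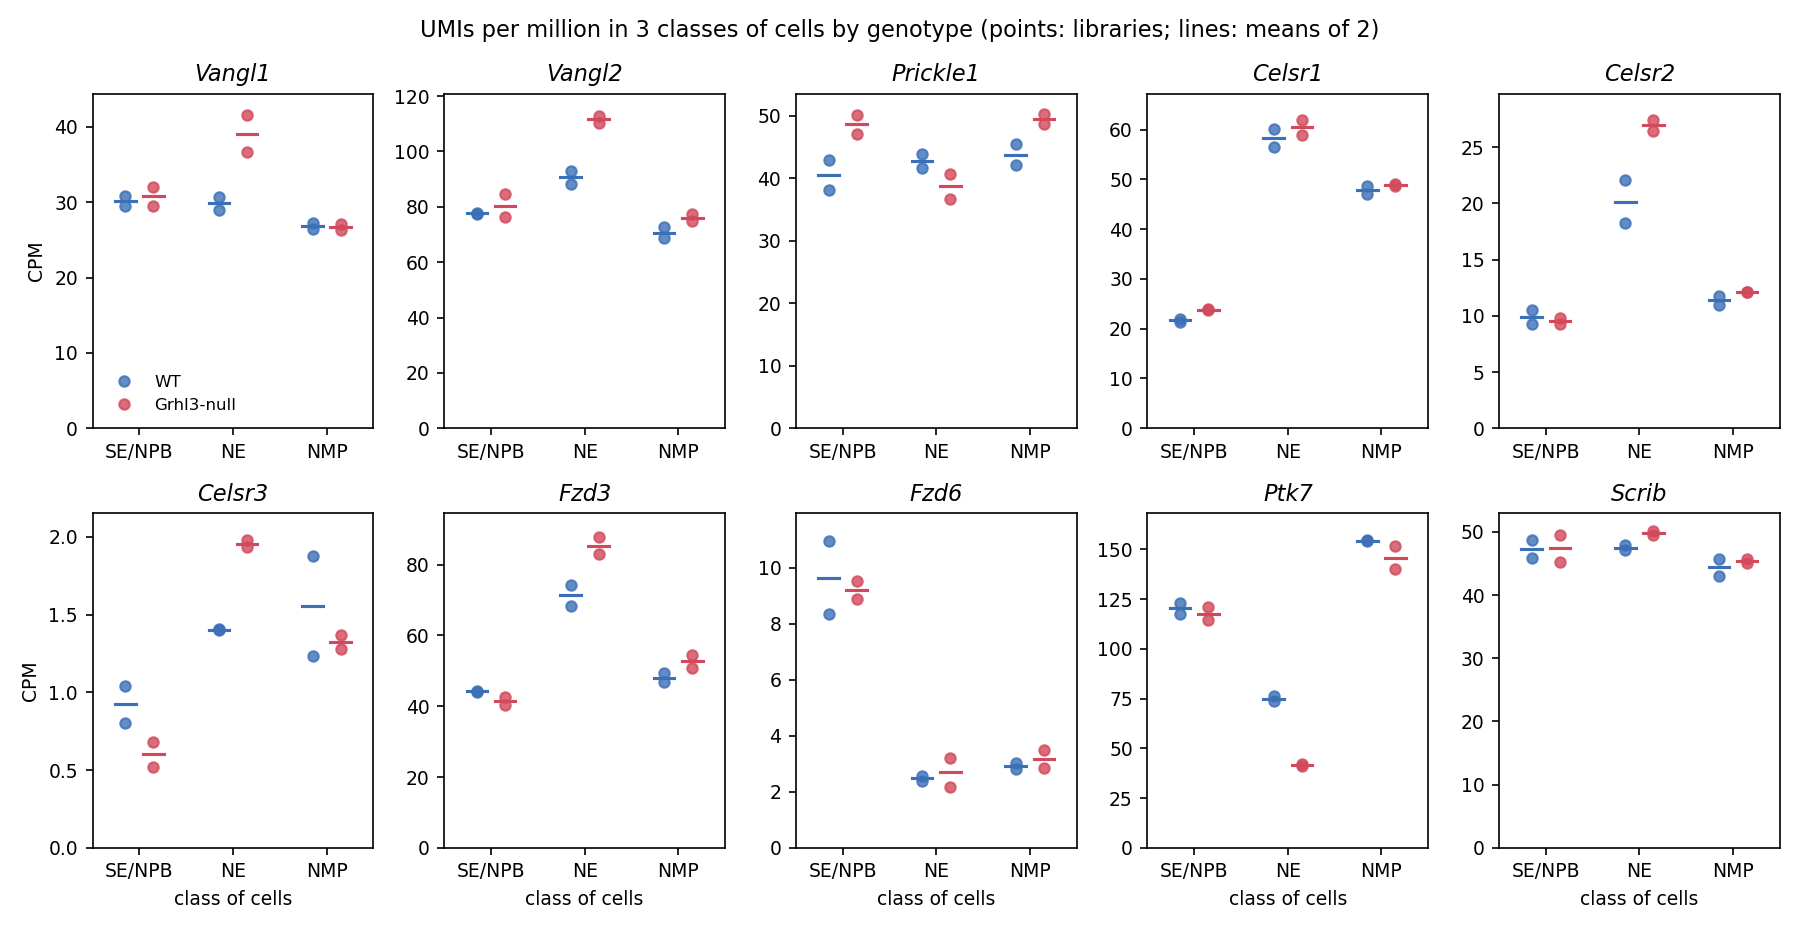
CPM of each PCP gene in the SE/NPB-like, NE-like and NMP-like (SE/NPB, NE, NMP) classes. Points are the 2 libraries of WT (blue) and *Grhl3*-null (red), and lines are their means. In the NE-like class *Ptk7* falls from 76.1 and 73.8 to 41.1 and 42.4 CPM, while the SE/NPB-like values lie close together.

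In the NE-like class (517 and 476 WT, 624 and 673 *Grhl3*-null cells), 6 of 10 genes differed between genotypes, where 21.7% of all genes did (9.82% higher and 11.9% lower in *Grhl3*-null). *Ptk7* had the largest difference. It stood at 76.1 and 73.8 CPM in WT and 41.1 and 42.4 CPM in *Grhl3*-null, without overlap (log2 -0.87 ± 0.04, adjusted p = 1.5e-09). *Vangl2* stood at 88.4 and 92.9 CPM in WT and 110.1 and 113 CPM in *Grhl3*-null (log2 0.27 ± 0.04, adjusted p = 0.00018), and *Vangl1* at 29.0 and 30.8 against 36.6 and 41.6 CPM (log2 0.36 ± 0.06, adjusted p = 0.00061). Both Vang-like genes were higher in each *Grhl3*-null library than in each WT library. *Celsr2* stood at 18.2 and 22.1 against 27.5 and 26.4 CPM (log2 0.39 ± 0.08, adjusted p = 0.0016), and *Fzd3* at 68.4 and 74.3 against 82.9 and 87.7 CPM (log2 0.23 ± 0.05, adjusted p = 0.0021). *Prickle1* was lower, at 41.7 and 43.8 against 36.7 and 40.8 CPM (log2 -0.17 ± 0.05, adjusted p = 0.034). *Celsr1* (log2 0.02 ± 0.04), *Scrib* (0.04 ± 0.04), *Fzd6* (0.09 ± 0.22) and *Celsr3* (0.45 ± 0.23) were not called.

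These differences moved with the make-up of the class. Divided more finely, most NE-like cells fell in 4 clusters named here by their leading genes: *Fam181b*/*Nkx6-1* (368 WT and 687 *Grhl3*-null cells), *Hes3*/*Sox2* (117 and 296), *Gadd45a*/*Pax3* (87 and 276) and *Hoxc10*/*Hoxa10* (401 and 2). The last made up 40.4% of the WT cells of the class and 0.154% of the *Grhl3*-null cells, and 399 of its WT cells were called female and 0 male. Summed markers of the other tissues moved as well. The 15 caudal mesoderm markers summed to 438 to 450 CPM in WT and 214 to 217 CPM in *Grhl3*-null NE-like cells, with 1 of the 15 at 0, the 15 NMP markers to 2061 to 2096 and 1791 to 1793 CPM, and the 15 neuroepithelium markers to 4310 to 4391 and 5540 to 5646 CPM, none of either list at 0. The 11 dissociation genes summed to 162 to 164 CPM in WT and 142 to 148 CPM in *Grhl3*-null.

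The levels of the PCP genes in the finer clusters are given as a description, with no test. *Nkx1-2* is a leading gene of the NMP-like class and *Pax6* of the NE-like class. WT *Hoxc10*/*Hoxa10* cells had 148.3 and 147.9 CPM of *Nkx1-2*, against 26.97 and 24.71 CPM in WT *Fam181b*/*Nkx6-1* cells. *Pax6* stood at 11.01 and 9.84 CPM in the former, against 95.1 and 105.4 CPM. WT *Hes3*/*Sox2* cells were also high in *Nkx1-2* (110.1 and 99.2 CPM) and WT *Gadd45a*/*Pax3* cells low in *Pax6* (26.9 and 21.3 CPM). The *Hoxc10*/*Hoxa10* cluster took no name at resolution 0.8. *Ptk7* stood at 127.8 and 125.0 CPM in the WT *Hoxc10*/*Hoxa10* cells. In the *Fam181b*/*Nkx6-1* cluster it was 35.6 and 34.0 CPM in WT and 28.9 and 31.3 CPM in *Grhl3*-null, in the *Hes3*/*Sox2* cluster 57.3 and 47.6 against 43.2 and 41.6 CPM, and in the *Gadd45a*/*Pax3* cluster 60.4 and 58.8 against 54.0 and 59.6 CPM. Both WT libraries of the *Hoxc10*/*Hoxa10* cluster were thus above every library of the other clusters in *Ptk7*. These cells were low in the genes that were higher in *Grhl3*-null. *Vangl2* stood there at 69.4 and 67.3 CPM, against 107 and 107 CPM in WT and 119 and 124 CPM in *Grhl3*-null cells of the *Fam181b*/*Nkx6-1* cluster. *Vangl1* stood there at 19.4 and 21.2 CPM against 31.0 to 40.4 CPM, *Fzd3* at 52.8 and 62.0 CPM against 80.8 to 95.5 CPM and *Celsr2* at 12.3 and 14.9 CPM against 25.6 to 34.0 CPM in that cluster. The *Gadd45a*/*Pax3* cluster was as low in *Celsr2*, at 9.3 and 17.1 CPM in WT and 13.5 and 11.9 CPM in *Grhl3*-null, and made up 8.76% of the WT and 21.3% of the *Grhl3*-null cells of the class.

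**Figure D3:**
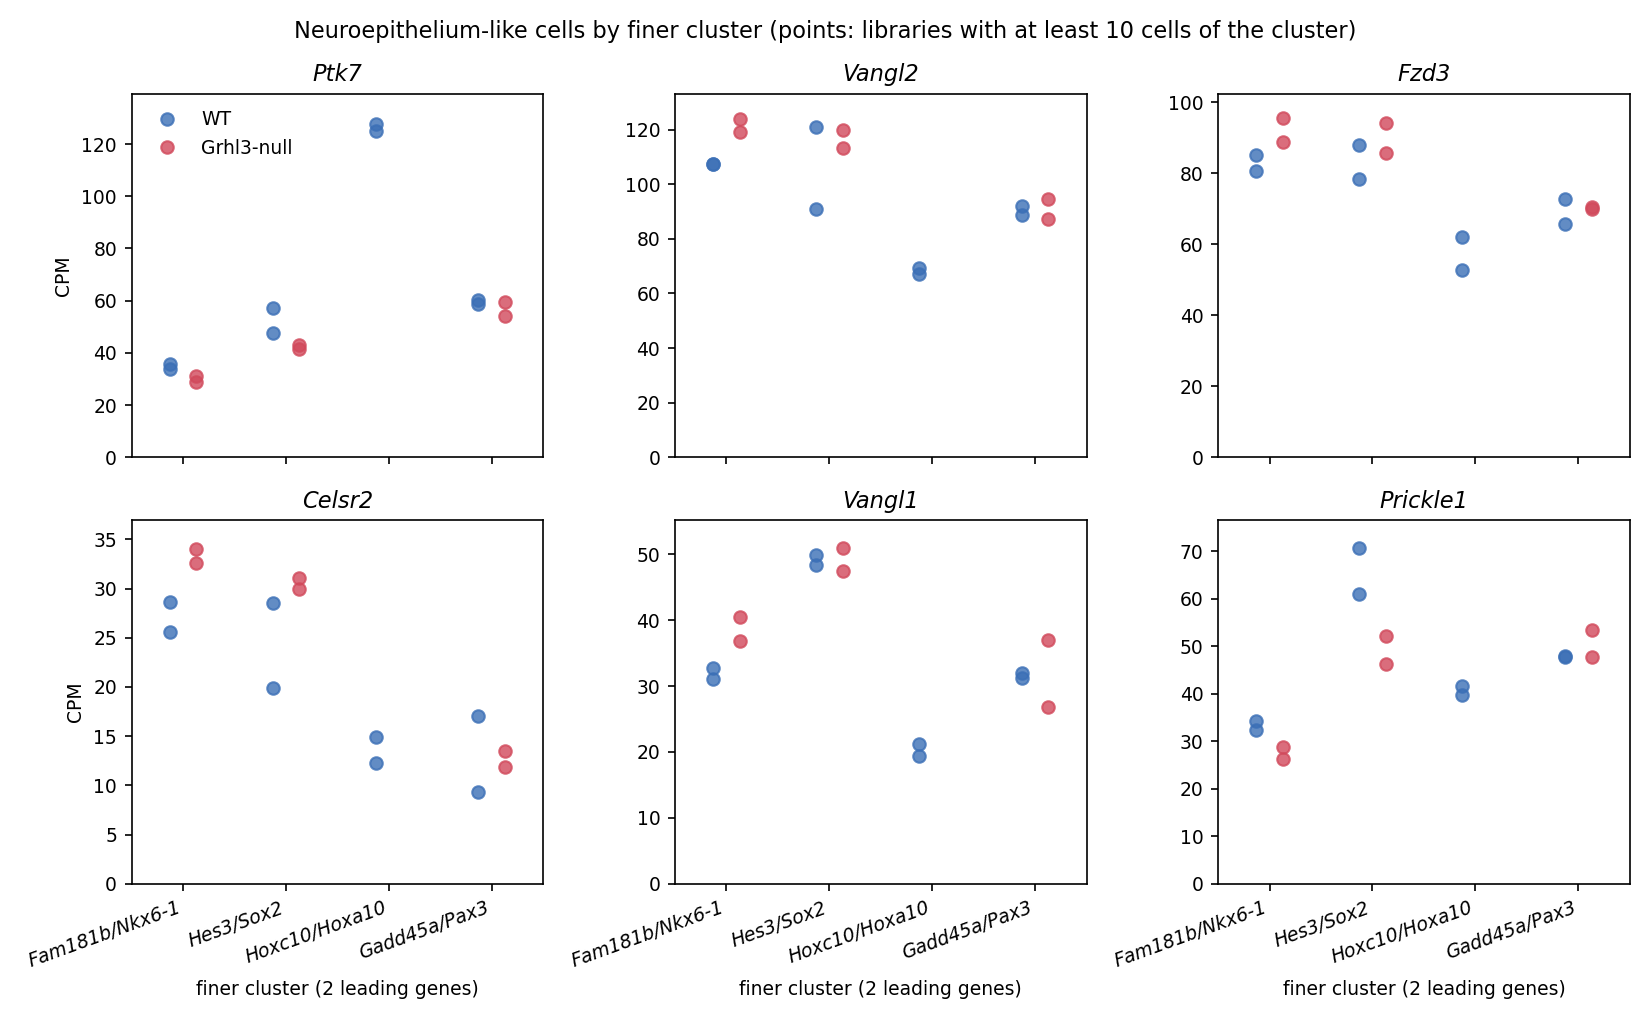
CPM of 6 PCP genes in the finer clusters of the NE-like class, which are named by their leading genes. Points are libraries with at least 10 cells of the cluster, WT in blue and *Grhl3*-null in red. The *Hoxc10*/*Hoxa10* cluster has WT points only and is highest in *Ptk7* (127.8 and 125.0 CPM) and lowest in *Vangl2*, *Fzd3* and *Vangl1*.

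Without the 3 finer clusters of nearly a single genotype, the NE-like class gave 0 of 10 calls, where 5.19% of all genes were still called. The log2 difference of *Ptk7* went from -0.87 ± 0.04 to -0.09 ± 0.05, with 44.4 and 43.1 CPM in WT and 41.1 and 42.4 CPM in *Grhl3*-null. Those of *Vangl2*, *Vangl1*, *Fzd3* and *Celsr2* went to 0.08 ± 0.05, 0.11 ± 0.07, 0.07 ± 0.05 and 0.15 ± 0.08, and that of *Prickle1* was -0.20 ± 0.06 (adjusted p = 0.084). At resolution 0.8, where only the *Fam181b*/*Nkx6-1* cluster kept the name, 0 of 10 were called (3.02% of all genes), with *Ptk7* at -0.22 ± 0.08 and *Celsr2* at 0.30 ± 0.09. The direction of each of these 6 genes was the same in both settings. The unadjusted p was under 0.05 for 2 of 10 genes without the single-genotype clusters and for 6 of 10 at resolution 0.8, and DESeq2, run on the whole class, called 5.

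Sex moved with genotype in the same class. Male cells were 14.5% of the sexed NE-like cells in WT and 83.8% in *Grhl3*-null. Within male cells *Ptk7* stood at 49.5 and 46.1 CPM in WT and 33.0 and 36.3 CPM in *Grhl3*-null (log2 -0.41 ± 0.09, adjusted p = 0.0026), and within female cells at 82.3 and 82.6 against 59.5 and 61.5 CPM (-0.49 ± 0.07, adjusted p = 6.7e-06). *Ptk7* was lower in *Grhl3*-null within each sex. *Prickle1* differed in opposite directions, being 59.5 and 68.5 against 33.1 and 37.3 CPM in male cells (-0.82 ± 0.09) and 38.4 and 36.5 against 54.3 and 61.8 CPM in female cells (0.58 ± 0.09), both called. *Vangl1* was 0.36 ± 0.10 in female and -0.16 ± 0.10 in male cells, *Vangl2* 0.20 ± 0.07 and 0.11 ± 0.08, and *Celsr2* -0.07 ± 0.14 and 0.41 ± 0.13, of which *Vangl1* and *Vangl2* in female and *Celsr2* in male cells were called. Cells of each sex came from few embryos, so that sex and embryo cannot be told apart. The finer clusters were also unevenly shared within a sex. The *Hoxc10*/*Hoxa10* cluster held 399 of 800 female WT cells and 0 of 173 female *Grhl3*-null cells. Of 136 male WT cells 83 were in the *Hes3*/*Sox2* and 27 in the *Fam181b*/*Nkx6-1* cluster, against 211 and 515 of 892 in *Grhl3*-null. The part of these shares in the values within a sex was not tested.

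**Figure D4:**
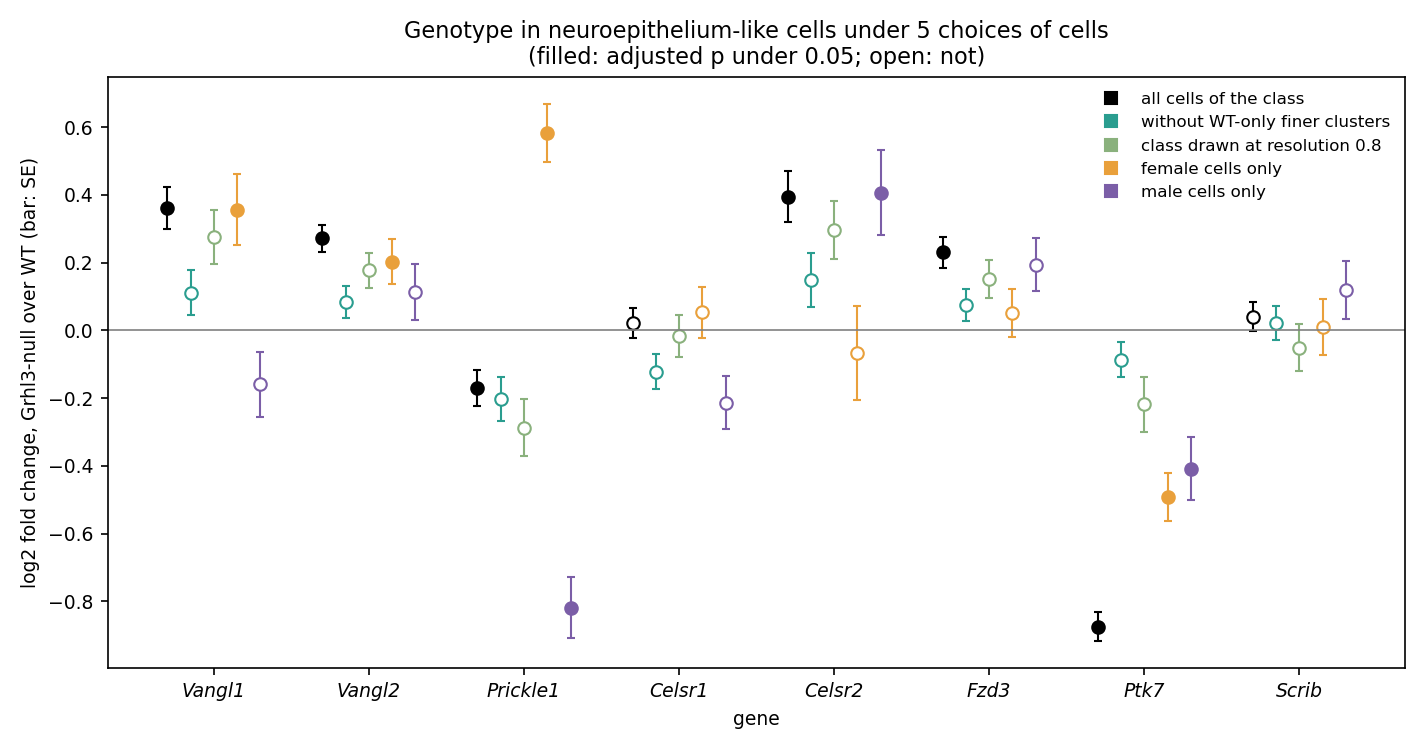
Log2 fold change of *Grhl3*-null over WT in NE-like cells for 8 PCP genes under 5 choices of cells (colours), with the standard error as bars. Filled points have an adjusted p under 0.05. *Ptk7* goes from -0.87 with all cells to -0.09 without the WT-only finer clusters, and *Prickle1* lies at 0.58 in female and -0.82 in male cells. *Celsr3* and *Fzd6*, with few UMIs, are left out.

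In the NMP-like class (852 and 804 WT, 740 and 686 *Grhl3*-null cells), 1 of 10 genes was called, against 19.4% of all genes. *Prickle1* stood at 42.1 and 45.6 CPM in WT and 48.6 and 50.4 CPM in *Grhl3*-null, without overlap (log2 0.16 ± 0.04, adjusted p = 0.018). *Ptk7* stood at 155 and 154 against 140 and 152 CPM (-0.10 ± 0.04, adjusted p = 0.084), *Fzd3* at 49.3 and 46.9 against 54.4 and 50.9 CPM (0.12 ± 0.04, adjusted p = 0.078) and *Vangl2* at 72.8 and 68.7 against 77.3 and 74.8 CPM (0.09 ± 0.04, adjusted p = 0.13). This class held a WT-only finer cluster too, led by *Pou5f1*, *Cdx1* and *Wnt8a*. Without the single-genotype clusters 1 gene was called, but it was *Ptk7* (-0.16) and no longer *Prickle1* (0.11). At resolution 0.8 *Ptk7* was called in the opposite direction (0.18, adjusted p = 0.0014). There the name covered the WT-only cluster, where *Ptk7* stood at 132.8 and 130.3 CPM, and the *Cyp26a1*/*Fgf8* cluster. In the latter it was 198.5 and 203.0 CPM in WT and 190.3 and 194.3 CPM in *Grhl3*-null. In the NMP-like cells of the *Hes3*/*Sox2* cluster, unnamed at that resolution, it was 124.5 and 122.5 against 102.5 and 108.2 CPM. The part of the WT-only cluster in the reversal was not tested. *Vangl1* was -0.33 in female and 0.36 in male cells, both called.

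The genotype effect in NE-like cells was set against that in the SE/NPB-like and NMP-like classes. The test of the difference itself called 5 of 10 genes between SE/NPB-like and NE-like cells, against 8.02% of all genes, and 4 of 10 between NMP-like and NE-like cells, against 8.67%. *Ptk7* had the largest difference in each, 0.79 ± 0.07 and 0.76 ± 0.06 on the log2 scale. Without the single-genotype clusters edgeR called 1 (*Prickle1*) and 0, with 3 and 1 genes under an unadjusted p of 0.05, and DESeq2 on the whole classes called 2 and 2. Without the first or the second WT library the counts were 2 and 3 against SE/NPB-like, and 1 and 1 against NMP-like cells, and without the first or the second *Grhl3*-null library 2 and 4, and 4 and 2.

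Over all filtered cells, 6 of 10 genes differed, against 35.5% of all genes. *Ptk7* was lower (109 and 111 CPM in WT, 88.8 and 88.4 CPM in *Grhl3*-null, log2 -0.35 ± 0.02), and *Celsr2* (0.34 ± 0.04), *Vangl1* (0.20 ± 0.02), *Vangl2* (0.13 ± 0.02), *Fzd3* (0.12 ± 0.02) and *Celsr1* (0.08 ± 0.02) were higher. Within female cells *Celsr2* was called lower (-0.17, adjusted p = 0.048) and *Fzd3* was -0.076, and within male cells *Celsr1* was -0.084, the last pair not called. These sums mix the levels within cells with the shares of the classes, and the pre-somitic cells rich in *Ptk7* were nearly all WT cells. The part of the shares in these differences was not tested. Without the single-genotype clusters 6 of 10 genes were still called over all cells.

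In the paraxial mesoderm-like class, 5 of 10 genes were called, against 20.9% of all genes. *Celsr2* rose from 3.63 and 3.01 to 6.35 and 6.24 CPM (log2 0.89 ± 0.13, adjusted p = 0.00023) and *Celsr1* from 10.995 and 10.995 CPM to 17.77 and 17.77 CPM (0.66 ± 0.07, adjusted p = 1.3e-05). *Fzd3* and *Vangl2* were higher by 0.20 and 0.18, and *Prickle1* lower, at -0.12. Male cells were 16.1% of the sexed cells of this class in WT and 82.8% in *Grhl3*-null. Within male cells *Celsr2* was called (log2 1.83) and within female cells it was not (0.17), and *Celsr1* was 0.46 and 0.42 without a call. The 15 neuroepithelium markers summed to 1114 to 1156 CPM in WT and 1446 to 1531 CPM in *Grhl3*-null cells of this class, and the 15 NMP markers to 609 to 684 and 814 to 820 CPM. The 15 pre-somitic mesoderm markers summed to 1050 to 1098 and 807 to 810 CPM, and the class's own 15 to 3256 to 3548 and 2884 to 2966 CPM. None of these lists had a gene at 0, and their part in the differences was not tested.

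*Ptk7* was lower in *Grhl3*-null in 6 of the 12 classes tested and higher in none, and *Scrib* was called in none of the 12. DESeq2 called no PCP gene in the notochord-like, intermediate mesoderm-like and Mesenchyme 1-like classes, which hold 3 of these 6 calls, with 1, 2 and 1 genes under an unadjusted p of 0.05. The notochord-like call was also lost without the first WT library (-0.41), without the first *Grhl3*-null library (-0.41) and with doublets removed (-0.25). The Mesenchyme 1-like call was lost without the second WT (-0.096), the first *Grhl3*-null (-0.17) or the second *Grhl3*-null library (-0.12). In gut-like cells 1 of 9 genes was called lower and none higher, near the 10.2% of all genes that were called lower. This gene was *Ptk7*, at 152 and 159 CPM in WT and 119 and 121 CPM in *Grhl3*-null (log2 -0.41 ± 0.05, adjusted p = 4.7e-06). It was called in male (-0.57) and not in female gut-like cells (-0.17). In this class the 15 gut markers summed to 5590 to 6048 CPM in WT and 8100 to 8112 CPM in *Grhl3*-null, and the 15 Mesenchyme 2 markers to 2240 to 2249 and 3044 to 3097 CPM, none at 0. In notochord-like cells it was again the only gene of 9, against 3.12%, at 204 and 188 against 132 and 150 CPM (-0.47 ± 0.10), and within female cells alone it was 0.07. The 11 dissociation genes summed there to 331 to 380 CPM in WT and 231 to 244 CPM in *Grhl3*-null, the 15 pre-somitic mesoderm markers to 1712 to 1892 and 1229 to 1260 CPM, and the 15 gut markers to 2138 to 2187 and 1556 to 1721 CPM, with up to 2, 1 and 2 genes at 0. The part of these shifts in the *Ptk7* differences was not tested. In intermediate mesoderm-like cells it stood at 67.9 and 62.8 against 37.3 and 37.5 CPM (-0.77 ± 0.15) beside *Prickle1* at 58.5 and 64.3 against 79.1 and 90.9 CPM (0.50 ± 0.13), 2 genes of 8 called against 2.75%. That class held 132 female and 0 male cells in WT and 4 female and 70 male cells in *Grhl3*-null, so that no value within a sex could be had. At resolution 0.8 *Prickle1* turned to -0.10 there, not called, and *Ptk7* was -0.23, called.

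In Mesenchyme 2-like cells 4 of 9 genes were called, against 21.5%. *Ptk7* stood at 71.7 and 72.0 against 51.9 and 53.8 CPM (-0.44 ± 0.05) and was lower in female (-0.28) and male cells (-0.32), both called. *Celsr1* was lower (-0.56 ± 0.18) and *Vangl2* higher (0.19 ± 0.06). *Vangl1* was 0.48 ± 0.09 over all cells but 1.20 in female and -0.63 in male cells, each called. Single genes were called in Mesenchyme 1-like (*Ptk7*, -0.15 ± 0.04, against 10.6%) and somitic mesoderm-like cells (*Vangl2*, 0.19 ± 0.04, against 12.1%), and 0 of 9 in endothelium-like and 0 of 7 in erythroid-like cells, where 0.568% and 0.443% of all genes were, with 0 genes under an unadjusted p of 0.05 in either and 0 called by DESeq2.

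**Figure D5:**
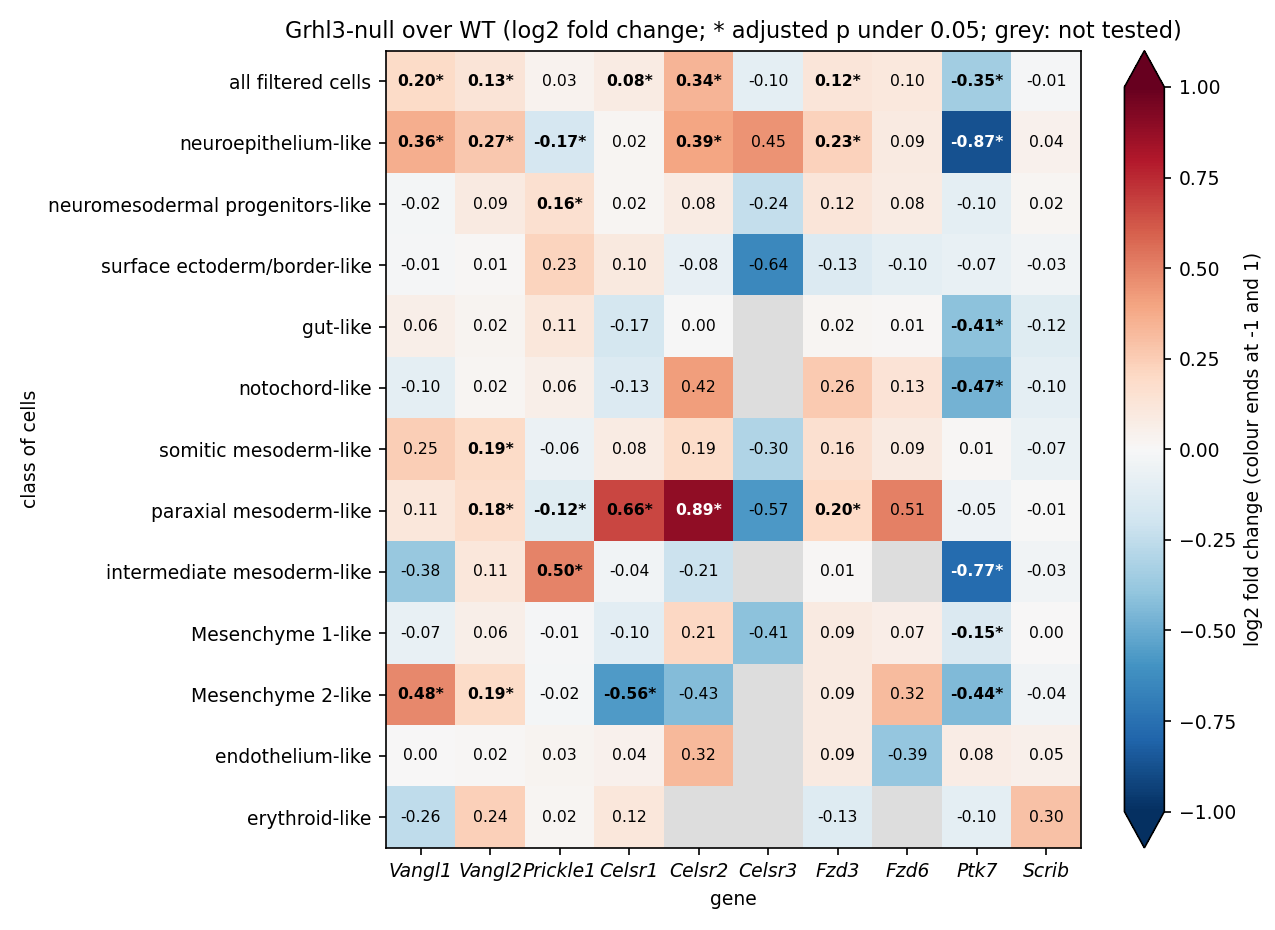
Log2 fold change of *Grhl3*-null over WT for the 10 PCP genes (columns) in all filtered cells and 12 classes (rows), from edgeR, with an asterisk where the adjusted p is under 0.05 and grey where the gene was not tested. *Ptk7* is lower with an asterisk in 6 classes, and the SE/NPB-like row has no asterisk.

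The wider pathway was followed in 40 further genes in 7 groups: ligands and secreted modulators, receptors and co-receptors, cytoplasmic core components, the Fat and Dachsous system, effectors, trafficking, and *Scrib* partners. By genotype, 22 of 40 were called over all cells (13 higher, 9 lower), 16 of 38 in NE-like (10 and 6), 9 of 40 in NMP-like (6 and 3) and 8 of 39 in SE/NPB-like cells (6 and 2). These are 55.0%, 42.1%, 22.5% and 20.5% of the genes tested, where 35.5%, 21.7%, 19.4% and 13.3% of all genes were called, so that the NMP-like share was near that of all genes. The median log2 difference of the list lay between 0.00 and 0.03 in these 4 fits, as did that of all genes at 0.00 to 0.01. Some directions over all cells depended on sex. *Fzd2*, *Fzd7* and *Sfrp2*, higher with both sexes, were called lower in female cells. *Wnt5a* and *Wnt5b*, lower with both sexes, were called higher in female cells. *Dlg1*, higher with both sexes, was called lower in male cells. In SE/NPB-like cells 3 of the 6 ligands and modulators tested and 2 of 6 receptors were higher, and none of either group was lower. This depended on the cells used. The ligands *Wnt5a* and *Wnt5b* were both called lower within male cells and both higher within female cells. With doublets removed *Wnt11* lost its call and the modulator *Sfrp2* was called lower. *Arhgef19*, which encodes a RhoA exchange factor, fell from a mean of 8.44 ± 1.23 to 4.42 ± 0.59 CPM (SD, n = 2 libraries; log2 -0.96 ± 0.18 SE, adjusted p = 0.0021). *Cthrc1*, a secreted WNT cofactor, rose from 11.1 ± 0.5 to 19.8 ± 0.01 CPM (0.80 ± 0.11, adjusted p = 0.00016). *Wnt11*, a ligand (0.72 ± 0.23), and *Ror1*, a WNT co-receptor (0.62 ± 0.15), were also higher. DESeq2 called 3 genes of the list in this class, *Cthrc1*, *Arhgef19* and *Fjx1*, and neither *Wnt11* nor *Ror1*. Within female cells *Ror1* was -0.35 and *Cthrc1* 0.21, not called, against 1.48 and 1.37 in male cells, both called.

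In NE-like cells the pathway ligand *Wnt5a* fell from 80.6 ± 3.2 to 34.3 ± 1.8 CPM (SD, n = 2; log2 -1.26 ± 0.05 SE, adjusted p = 1.5e-10). The co-receptor *Gpc4* (-0.79 ± 0.16) and *Prickle3* (-1.38 ± 0.34, 50 and 24 UMIs) were lower too, and the receptors *Fzd7* (0.57 ± 0.05) and *Ror1* (0.94 ± 0.25) and the WNT antagonist *Sfrp5* (2.64 ± 0.28, from 39 to 307 UMIs) higher. *Wnt5a* stood at 155.9 and 147.7 CPM in the WT *Hoxc10*/*Hoxa10* cells, and without the single-genotype clusters its log2 difference was -0.13 ± 0.06, not called. *Gpc4* (-0.10), *Fzd7* (0.19), *Ror1* (0.69) and *Prickle3* (-0.82) were not called either in that setting, where the list had 3 calls in place of 16 (7.89% of those tested, against 5.19% of all genes). *Sfrp5* kept its call in that setting (2.15 ± 0.34, adjusted p = 0.0010) but not at resolution 0.8 (0.09 ± 0.58). At that resolution the list had 3 calls of 36 tested, where 3.02% of all genes were called. They were *Wnt5a* and *Fjx1*, lower, and *Fzd7*, higher. In the *Fam181b*/*Nkx6-1* cluster *Wnt5a* stood at 31.2 and 27.4 CPM in WT and 17.6 and 16.3 CPM in *Grhl3*-null. It was 43.5 and 39.0 against 35.5 and 36.4 CPM in the *Hes3*/*Sox2* cluster, and 47.0 and 54.5 against 63.8 and 55.7 CPM in the *Gadd45a*/*Pax3* cluster. In NMP-like cells *Sfrp5* moved the other way, from 129 to 23 UMIs (-2.33 ± 0.33, adjusted p = 0.00073), and was the only gene of the list called there with a difference of at least 0.5. Without the single-genotype clusters 7 of 38 genes of the list were called in NMP-like cells, and *Sfrp5* was not among them. That is 18.4% of those tested, against 8.40% of all genes in that setting.

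Some genes followed a PCP gene closely over the 14 WT classes. By Pearson's r of log2(CPM + 1) among 7913 genes, *Zfp444* (0.978) and *Patz1* (0.977) were most like *Fzd3*, *Atf2* (0.969) and *Trove2* (0.961) most like *Vangl2*, *Tmem237* (0.969) and *Axin1* (0.968) most like *Scrib*, and *Amn1* (0.958) and *Tgif1* (0.954) most like *Ptk7*. *Snhg11* (0.935) and *Ypel1* (0.932) were most like *Prickle1*, *March9* (0.918) and *Gdpd1* (0.903) most like *Celsr2*, *Gnpda2* (0.913) and *Bcl2l1* (0.910) most like *Fzd6*, and *Snx10* (0.883) and *Fbln2* (0.873) most like *Celsr1*. *Dmac1* (0.888) and *Apba2* (0.883) stood nearest to *Celsr3*, and *Jpt1* (0.823) and *Cenpb* (0.815) to *Vangl1*. Over the 13 *Grhl3*-null classes the same pairs had 0.728 to 0.976, apart from *Dmac1* with *Celsr3* at 0.244. Among the PCP genes, *Fzd3* and *Scrib* (0.976) and *Vangl2* and *Fzd3* (0.931) had the most similar profiles, and *Vangl1* ran from -0.340 with *Fzd3* to 0.567 with *Fzd6*. Classes of a library share its depth and pool, and these values describe only the profiles.

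Promoters were searched for AACCGGTT, the palindromic consensus bound by Grainyhead-like factors, which reads the same on both strands. RefSeq windows of 300 bases around transcript starts (GRCm38.p6) were at hand for 5 of the 10 genes. The motif was in 0 of their 6 windows and in 0.146% of all 32851 windows (48 of them). With a share this low, 0 of 6 windows cannot tell these genes from others, and no conclusion is drawn.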

How the data were processed

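Per the submitters' processing notes, Cell Ranger and mm10 were used. The authors deposited raw matrices of UMI counts, before their filters on cells, and the counts were used as they stand. Cells with at least 3000 genes, 7500 UMIs and at most 7% mitochondrial UMIs were kept, merged, normalised with sctransform 0.4.2 and clustered in Seurat 5.3.0 (R 4.3.3; 3000 variable features without the PCP genes and the wider list, 30 components, resolution 0.4). Of the 10 PCP genes 8, and of the wider list 15 of 40, had been among the variable features. A cluster took the cell type with most of its 15 markers among the 30 leading genes, if at least 3 and over 1.5 times the next type. The lists, for 16 types, came from the study, which chose them on these libraries.

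UMIs were summed per class and library and tested with edgeR 4.0.16 (TMM, filterByExpr, quasi-likelihood test, Benjamini-Hochberg adjustment over all genes tested, threshold 0.05), with the library as a term for contrasts of WT classes. Classes needed at least 10 cells in every library. Scrublet in scanpy 1.11.5 marked at most 0.0627% of cells, under 0.5%, so doublets were kept and the highest 5% of scores removed in an alternative. Sex was called from 4 Y-linked genes and *Xist* (male with at least 2 Y-linked and at most 2 *Xist* UMIs, female with at least 3 *Xist* and at most 1 Y-linked UMIs). The 2 libraries of a genotype were distinct, since their counts differed by a chi-square of 8.20 (WT) and 14.4 (*Grhl3*-null) per degree of freedom. The number in a library's name does not pair the samples (correlation of deviations 0.008 over 15581 genes). The fits were tested on simulated data. For the genotype in SE/NPB-like cells (9942 genes) they recovered 166 of 200 genes changed by a log2 fold of 0.5 and 200 of 200 changed by 2, with 8 wrong calls each. At 0.5 they recovered 181 over all cells, 137 in the *Grhl3* UMI split, 125 between WT SE/NPB-like and NE-like cells and 119 for their difference in genotype effect. Only genes with at least 200 UMIs were simulated, with a small fixed spread. Differences between embryos, sexes or finer clusters were not, so the recoveries do not cover them.

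Named were all 10 PCP genes, genes of the wider list called with a log2 difference of at least 0.5 in the SE/NPB-like, NE-like or NMP-like class, and for each PCP gene the 2 genes most like it over WT classes (at least 20 CPM in 1 class). Genes that lead the finer clusters were named after their values were seen. The PCP genes and all lists were chosen with earlier results of these data known. DESeq2 1.42.0, upper-quartile scaling, no filter, resolution 0.8, all variable features, doublets removed, single sexes, a replicate block and leaving out libraries were alternatives.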

Additional observations from a re-analysis of the deposited data

Results flagged for a closer look

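In 9 cases the genotype effect (log2 of *Grhl3*-null over WT) differed between classes by a test of the difference itself (edgeR's quasi-likelihood test of the interaction, Benjamini-Hochberg adjusted over all genes). Between SE/NPB-like and NE-like cells, the effect on *Ptk7* was higher in SE/NPB-like cells by 0.79 ± 0.07 (SE, adjusted p = 2.6e-07) and that on *Prickle1* by 0.38 ± 0.09 (adjusted p = 0.013). The effects on *Fzd3* (-0.38 ± 0.08, adjusted p = 0.0048), *Vangl1* (-0.39 ± 0.10, adjusted p = 0.024) and *Vangl2* (-0.27 ± 0.07, adjusted p = 0.020) were lower there. Between NMP-like and NE-like cells, the effects on *Ptk7* (0.76 ± 0.06, adjusted p = 1.6e-07) and *Prickle1* (0.32 ± 0.07, adjusted p = 0.0090) were higher in NMP-like cells. Those on *Vangl1* (-0.39 ± 0.08, adjusted p = 0.0050) and *Vangl2* (-0.19 ± 0.06, adjusted p = 0.045) were lower there. Without the finer clusters of nearly a single genotype, *Prickle1* between SE/NPB-like and NE-like cells was the only one of these still called. The sign of some depended on sex. Within female cells the difference for *Prickle1* was called the opposite way, at -0.39 (adjusted p = 0.042) for SE/NPB-like and -0.33 (adjusted p = 0.049) for NMP-like against NE-like cells, and within male cells that for *Vangl1* in NMP-like against NE-like cells was called at 0.53 (adjusted p = 0.0093).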

How the results depend on the processing

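The alternatives were chosen with earlier results of these data known, and leaving out the finer clusters of nearly a single genotype was chosen after seeing the data. Of 2436 values for single genes, 2192 kept their direction and side of the threshold or moved within the spread, 140 lost and 40 gained a call, 42 moved and 22 reversed. The causes were not tested. Repeated reactions on pools carry no spread between embryos, and classes with few UMIs limit *Celsr3* and *Fzd6*.

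PCP genes called by genotype numbered 6 over all cells (3 in female cells), 0 in SE/NPB-like cells (1 with all variable features, in male cells, without a filter on low counts or with the replicate block), 6 in NE-like cells (3 in male cells, 0 at resolution 0.8 and 0 without the single-genotype clusters), 1 in NMP-like cells (0 by DESeq2, 3 in female cells, 4 with the replicate block and 4 at resolution 0.8) and 15 over the other classes (5 by DESeq2, 9 in female and 6 in male cells). The differences between classes numbered 5 for SE/NPB-like against NE-like cells (2 by DESeq2, 3 in female and 1 in male cells, 1 at resolution 0.8 and 1 without the single-genotype clusters) and 4 for NMP-like against NE-like cells (2 by DESeq2, 2 in male cells and 0 without those clusters). The *Grhl3* UMI split gave 2 calls (0 at resolution 0.8), and the wider list 55 over its 4 fits (30 by DESeq2 and 36 without those clusters).

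Leaving out each library in turn gave 5 to 6 calls over all cells, 0 to 1 in SE/NPB-like (1 without the first WT library), 5 to 6 in NE-like, 1 to 4 in NMP-like (4 without the second *Grhl3*-null library), 9 to 11 in the other classes (9 without the first *Grhl3*-null library) and 34 to 50 in the wider list (34 without the second WT library). It gave 2 to 4 for SE/NPB-like against NE-like cells (4 without the second *Grhl3*-null library) and 1 to 4 for NMP-like against NE-like cells (4 without the first). The replicate number only names a reaction, and samples with the same number did not deviate together (correlation 0.008). With it as a replicate block the NMP-like count went from 1 to 4 and the SE/NPB-like count from 0 to 1.

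Reversed log2 values were, in male cells, *Celsr1* over all cells (-0.084), *Vangl1* in Mesenchyme 2-like (-0.63), NE-like (-0.16) and NMP-like cells (0.36), and *Vangl1* in SE/NPB-like (0.13) and NMP-like (0.53) against NE-like cells. In female cells they were *Celsr2* (-0.17) and *Fzd3* (-0.076) over all cells, *Celsr2* (-0.067) and *Prickle1* (0.58) in NE-like, *Ptk7* in notochord-like (0.072) and *Prickle1* in paraxial mesoderm-like cells (0.27), and *Prickle1* in SE/NPB-like (-0.39) and NMP-like (-0.33) against NE-like cells. At resolution 0.8 they were *Vangl1* in Mesenchyme 2-like (-0.051), *Prickle1* in intermediate mesoderm-like (-0.10), *Ptk7* in NMP-like cells (0.18) and *Prickle1* in WT SE/NPB-like against NE-like cells (0.26, and 0.28 when that contrast was fitted in the *Grhl3*-null libraries at resolution 0.4). Without the single-genotype clusters they were *Vangl1* (0.050) and *Ptk7* (-0.080) in NMP-like against NE-like effects, and *Celsr3* in WT NMP-like against NE-like cells (-1.26). Called in the reversed direction were *Celsr2* over all female cells, *Vangl1* in male Mesenchyme 2-like and NMP-like cells and in male NMP-like against NE-like cells, *Prickle1* in female NE-like cells and both female differences between classes, *Ptk7* in NMP-like cells at resolution 0.8, and *Celsr3*. So was *Prickle1* in SE/NPB-like against NE-like cells, in WT at resolution 0.8 and in the *Grhl3*-null libraries.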
